A study of Mus musculus with 18 samples.

Results

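The 6 genes described here are Dtx1, Cd9, Notch1, Notch2, Cd1d1 and Rbpj, which belong to Notch signalling or mark marginal zone B cells of the mouse spleen. Their chromatin accessibility was read from 28 of the 27396 regions of the series. A region was given to a gene when the nearest gene end within 50 kb, among protein-coding genes, was that gene's. In this way 86.7% of all regions had a gene, and the 28 regions fell as 8 to Dtx1, 7 to Cd9, 2 to Notch1, 3 to Notch2, 3 to Cd1d1 and 5 to Rbpj. The regions were 109 to 611 bp wide.

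The series measured accessibility by ATAC-seq, in which a transposase cuts open DNA and tags it for sequencing, in spleen of C57BL/6J wild-type mice. B cells and T cells were immunostained on fresh frozen sections that had been tagmented in place, and were then cut out with a laser (laser capture microdissection). The 18 libraries formed 4 groups, with 5 libraries each of B patches and T patches and 4 libraries each of 100 B nuclei and 100 T nuclei. A patch library pooled 10 tissue areas with about 1000 nuclei in all, and a library of 100 nuclei pooled nuclei captured singly. All groups shared strain, genotype and tissue. The stained proteins, the age and number of the mice, any treatment and the animal behind each library are not given in the labels. The labels call the libraries technical replicates, so p-values speak for the spread of libraries and overstate the certainty about mice.

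Notch is a receptor that a ligand of the Delta or Jagged family on a neighbouring cell activates. Proteases then release its intracellular part, which enters the nucleus, binds the DNA-binding protein RBPJ and turns on target genes such as Hes1 and Dtx1. In the mouse spleen, NOTCH2 on B cells and its ligand DLL1 on stromal cells are needed to form marginal zone B cells, which line the border of the follicle and answer blood-borne antigens early. Marginal zone B cells carry more CD9, CD1d and complement receptor CR2 on their surface than follicular B cells do, whereas NOTCH1 is best known for setting the T cell fate in the thymus.

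The start sites of 5 of the genes could be placed from RefSeq promoter sequences of GRCm38.p6, the assembly whose coordinates mm10 shares. Each sequence runs 5′ to 3′ in the direction of the gene, from 250 bases before the start site to 50 bases after it. The table held none for Cd1d1. The promoters of Dtx1 and Cd9 are shown because these genes held the called regions, that of Notch1 for the lowest p among start sites, and that of Rbpj because it held TGGGAA on both strands. A region covered 151 of the 300 bases at Dtx1, 142 at Cd9, 250 at Notch1 and 251 at the upstream one of the 2 overlapping Rbpj promoters. They lie at chr5:120711620-120711919, minus strand (Dtx1), at chr6:125494711-125495010, minus strand (Cd9), at chr2:26503773-26504072, minus strand (Notch1) and at chr5:53590096-53590395, plus strand (Rbpj). Capitals mark TGGGAA, the core of the RBPJ binding site, or TTCCCA, the same site on the other strand.
Dtx1: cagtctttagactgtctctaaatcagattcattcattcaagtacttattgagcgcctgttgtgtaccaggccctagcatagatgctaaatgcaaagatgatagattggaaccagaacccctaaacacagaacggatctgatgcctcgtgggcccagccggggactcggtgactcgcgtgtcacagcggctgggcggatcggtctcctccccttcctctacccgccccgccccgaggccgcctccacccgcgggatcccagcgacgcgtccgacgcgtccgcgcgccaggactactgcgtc
Cd9: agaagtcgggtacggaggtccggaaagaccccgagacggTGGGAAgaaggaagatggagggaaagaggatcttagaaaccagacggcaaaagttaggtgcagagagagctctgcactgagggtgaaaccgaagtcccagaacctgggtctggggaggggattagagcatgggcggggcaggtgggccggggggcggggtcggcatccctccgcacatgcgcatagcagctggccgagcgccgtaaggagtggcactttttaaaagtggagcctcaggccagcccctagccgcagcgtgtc
Notch1: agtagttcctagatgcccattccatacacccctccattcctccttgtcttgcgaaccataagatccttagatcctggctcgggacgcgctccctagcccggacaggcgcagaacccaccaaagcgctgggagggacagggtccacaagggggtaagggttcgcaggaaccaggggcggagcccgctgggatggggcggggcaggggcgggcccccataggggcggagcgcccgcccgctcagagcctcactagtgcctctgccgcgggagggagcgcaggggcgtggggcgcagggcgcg
Rbpj: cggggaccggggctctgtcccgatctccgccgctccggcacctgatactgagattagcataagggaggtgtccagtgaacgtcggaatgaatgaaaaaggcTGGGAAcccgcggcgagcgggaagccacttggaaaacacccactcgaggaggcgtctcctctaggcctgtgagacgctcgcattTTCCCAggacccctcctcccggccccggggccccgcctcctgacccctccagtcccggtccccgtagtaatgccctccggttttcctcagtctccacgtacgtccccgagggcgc
Both strands were searched for TGGGAA in the 6 promoters found for the genes and in all 32851 promoters of the table, of which 25.6% held it. The Cd9 promoter held it once, from position -211, counting the start site as 0. This match lay upstream of the region over the Cd9 start site, in bases that the region did not cover. The upstream Rbpj promoter held it at -149 and, on the other strand, at -65, and the downstream one held that second occurrence again. The promoters of Dtx1, Notch1 and Notch2 held none within these 300 bases. A match is only a run of letters, and binding of RBPJ was not measured.

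Total counts were 2713677 to 6553535 in B patches and 2193837 to 7343204 in T patches, against 547333 to 720555 in B and 319481 to 1076765 in T libraries of 100 nuclei. Mitochondrial DNA took 18.8 to 33.6% of counts in B patches and 16.1 to 23.1% in T patches. The labelled cell types were checked against marker genes, by the share of nuclear counts in their regions. The 8 B cell markers, all with counts, held 0.119 to 0.170% in B patches and 0.0211 to 0.0425% in T patches. The 12 T cell markers, of which Cd4 had no region, held 0.0316 to 0.0543% in B patches and 0.149 to 0.217% in T patches, so neither list overlapped between the groups. Regions of the macrophage and monocyte list, of which only Adgre1 and Csf1r of 8 genes had counts, held 0.0160 to 0.0255% in B patches and 0.00261 to 0.0104% in T patches. The part of macrophages in the differences between B and T patches was not tested. The defining markers Cd68, Lyz2, Vcam1, Spic, Marco and Cd163 had no region. Of 5 dendritic cell markers only Flt3 had counts, with 0.0112 to 0.0177% in B patches and 0.00252 to 0.0123% in T patches. The stroma and endothelium list, with 3 of 8 genes counted, held 0.0124 to 0.0190% in B patches and 0.0189 to 0.0303% in T patches, and the natural killer cell list, with 2 of 3 genes counted, 0.0146 to 0.0267% in B patches and 0.0165 to 0.0383% in T patches. None of the 4 neutrophil markers had counts.

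In patches, accessibility at Dtx1 and Cd9 was higher in B cells than in T cells at named regions inside both genes, while no region of Notch1, Notch2, Cd1d1 or Rbpj passed the test. Of the 28 regions, 26 had enough counts to be tested. At an adjusted p under 0.05 in edgeR's quasi-likelihood test with Benjamini-Hochberg adjustment over 25712 regions, 3 of the 26 were called, all higher in B. Over all tested regions, 2.27% were called, 1.22% higher in B and 1.05% higher in T. Without adjustment 8 of the 26 had p under 0.05, against 12.7% of all tested regions. The median log2 fold change of B over T was 0.60 over the 26 regions and -0.03 over all. It was above 0 in 20 of the 26, against 48.7% of all. The libraries of the groups did not overlap, with B higher, at 5 of the 26, against 4.33% of all. They did not overlap with T higher at 0 of the 26, against 3.69% of all. In such bulk captures, more cells of a type and more open DNA per cell cannot be told apart.

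**Figure D1:**
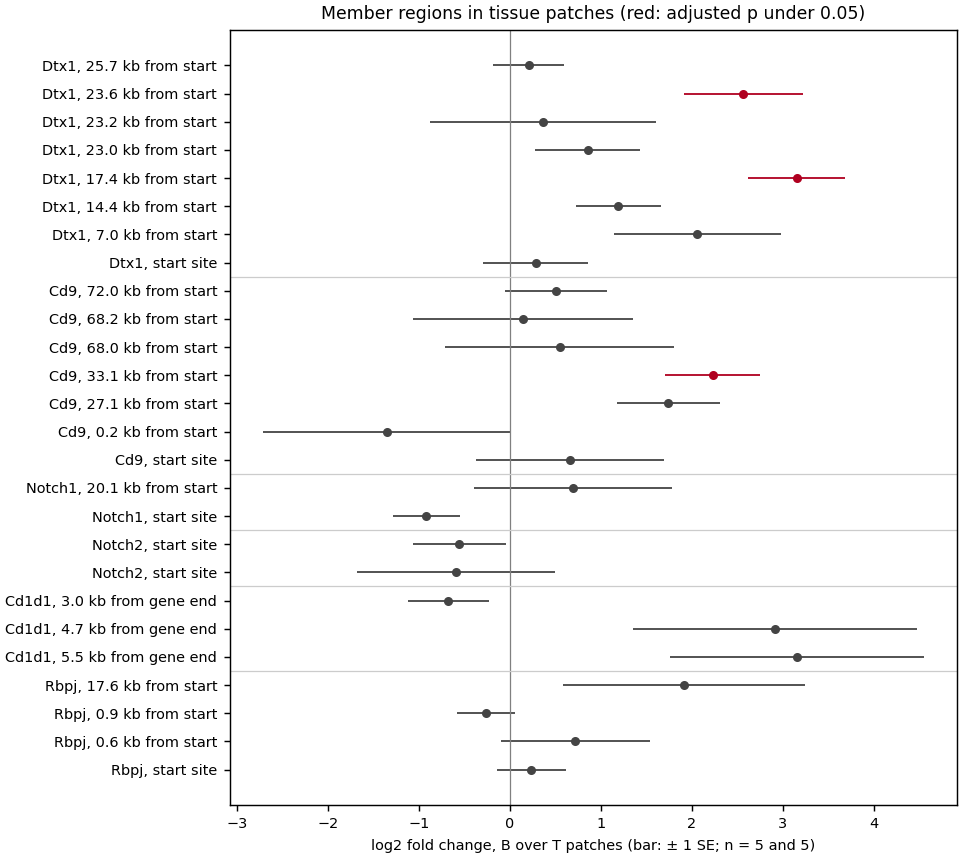
Log2 fold change of B over T patches (x axis) for the 26 tested regions of the 6 genes, 1 row a region, ordered by gene and position. Points are estimates, bars 1 standard error on either side (n = 5 and 5), and red marks an adjusted p under 0.05. The 3 red regions are at Dtx1 (3.15 and 2.56) and Cd9 (2.23), while the start sites of Dtx1 and Rbpj lie at 0.28 and 0.23 and those of Notch1 and Notch2 below 0.

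Dtx1 encodes Deltex1, a ubiquitin ligase that binds the intracellular part of Notch, and it is itself a Notch target in lymphocytes. Dtx1 (gene ID 14357, chr5:120680203-120711867) had 8 regions, all inside the gene and all with a log2 fold change above 0. The lowest p was found 17.4 kb into the gene, at chr5:120693961-120694243. There the libraries had 95.6, 56.6, 79.3, 50.5 and 42.0 normalized CPM in B patches, against 9.87, 2.4, 4.74, 15.7 and 3.54 in T patches. Every B library lay above every T library, the nearest being 42.0 in B and 15.7 in T. The log2 fold change was 3.15 ± 0.53 and the adjusted p from edgeR 0.00466. Leaving out each library in turn kept the adjusted p between 0.00426 and 0.0198.

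A second region, 23.6 kb into Dtx1 at chr5:120687986-120688119, differed in the same direction. It had 52.0, 42.0, 61.0, 35.9 and 26.4 normalized CPM in B patches, against 13.2, 5.60, 14, 0.748 and 2.88 in T patches. The groups again did not overlap, with 26.4 the lowest B library and 14 the highest T library. Its edgeR log2 fold change 2.56 ± 0.65, adjusted p = 0.0412, was close to the threshold. The adjusted p was 0.112 without B library 1, 0.132 without B library 3, 0.0790 without B library 4, 0.0606 without B library 5, 0.0530 without T library 2, 0.0596 without T library 4 and 0.0900 without T library 5. It was also lost when libraries were scaled by library size alone (adjusted p = 0.0602).

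At the start site of Dtx1 the test did not pass. The region over it, chr5:120711599-120711770, had 37.8, 5.84, 38.5, 34.3 and 25.6 normalized CPM in B patches, against 8.86, 12.8, 44.0, 22.4 and 28.3 in T patches. The groups overlapped over most of their range (log2 fold change 0.28 ± 0.58, adjusted p = 0.949 in edgeR). They also overlapped 25.7 kb into the gene, at chr5:120685734-120685942, with 56.6, 95, 28.5, 37.7 and 38.7 normalized CPM in B patches, against 59.2, 34.4, 59.3, 26.4 and 42.3 in T patches (log2 fold change 0.21 ± 0.39, adjusted p = 0.946). Between these, the region 14.4 kb into the gene had a log2 fold change of 1.19 ± 0.47 (adjusted p = 0.238) and the one at 7.0 kb 2.06 ± 0.92 (adjusted p = 0.332), both with an unadjusted p under 0.05. The last 2 regions, 23.0 and 23.2 kb into the gene, had 0.85 ± 0.58 and 0.36 ± 1.24 (adjusted p = 0.653 and 0.972). Regions this close together can share sequenced fragments.

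To compare regions inside the gene with its start site, the log2 ratio of each called region to the start-site region was taken within each library, with 1 normalized CPM added to both. At 17.4 kb the ratio was 1.33 ± 1.02 in B patches, against -1.61 ± 1.37 in T patches (SD, n = 5 each), and the groups did not overlap. The difference of 2.94 had a two-sided exact permutation p of 0.00794, the smallest that 5 against 5 libraries allow (adjusted over 3 such tests, 0.0238). At 23.6 kb the difference was 2.53 (exact permutation p = 0.0317, adjusted 0.0476), and leaving out any 1 of 6 libraries, B 2 or 3 or T 2, 3, 4 or 5, gave an unadjusted exact p of 0.0635, and leaving out both libraries numbered 2 gave 0.114. For the called Cd9 region, against the Cd9 start site, it was 1.66 (exact permutation p = 0.214), but 0.0159 without T library 2, where the start-site region had 0 reads, 0.0286 without both libraries numbered 2 and 0.0476 with 4 normalized CPM added. These ratios were chosen after the values had been seen, for regions called in the same libraries, so they describe the regions and lend them no separate weight.

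**Figure D2:**
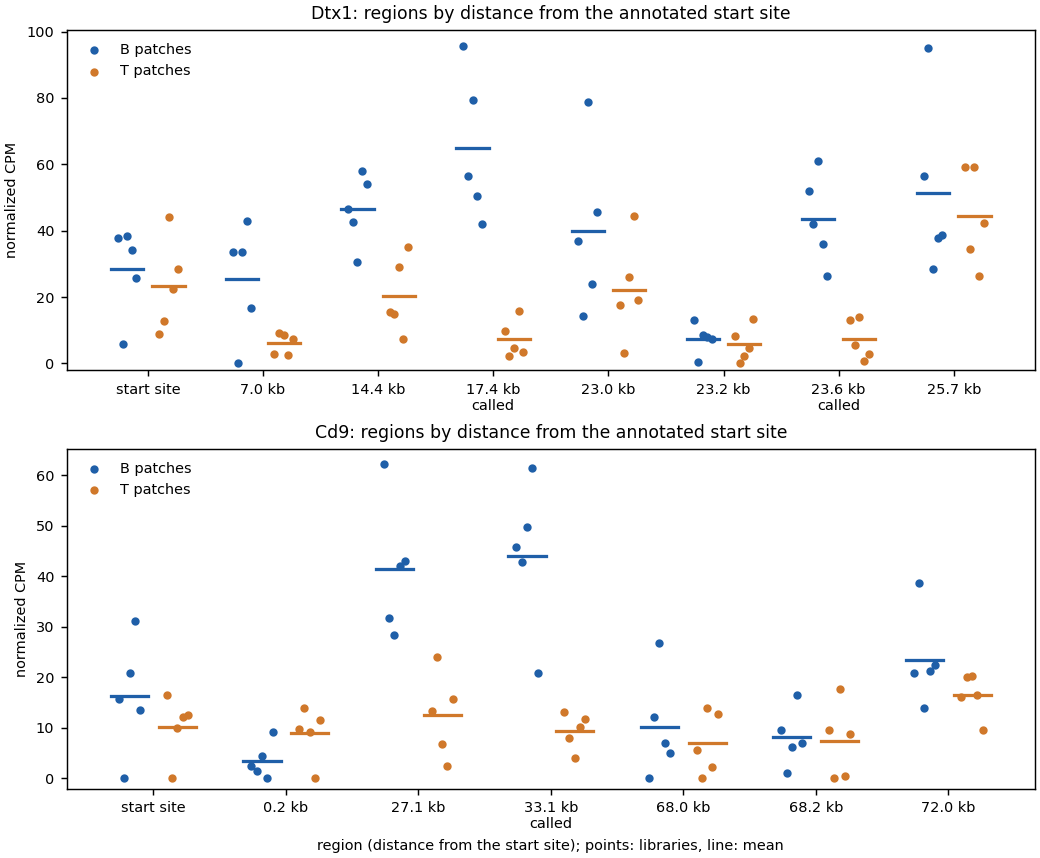
Normalized CPM (y axis) in each of the 5 B and 5 T patch libraries for the 8 Dtx1 regions (top) and the 7 Cd9 regions (bottom), placed in order of distance from the start site but not to scale. Points are libraries and lines are means. At the called Dtx1 regions B libraries reach 95.6 and 61.0 and T libraries at most 15.7 and 14, and at the start site the colours mix.

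Cd9 encodes a tetraspanin, a membrane-spanning protein that organises other surface proteins, and its protein marks marginal zone B cells as well as plasma cells, platelets and macrophages. Cd9 (gene ID 12527, chr6:125460266-125494760) had 4 regions inside the gene and 3 outside, 33.5 to 37.5 kb beyond its far end. The called region lay inside the gene, 33.1 kb from the start site and 0.920 kb from the far end, at chr6:125461186-125461629. It had 45.7, 42.7, 49.7, 61.5 and 20.8 normalized CPM in B patches, against 13.2, 8.0, 3.95, 10.2 and 11.7 in T patches. The lowest B library, at 20.8, stood above the highest T library, at 13.2 (log2 fold change 2.23 ± 0.52, adjusted p = 0.0280 in edgeR). This call rests on several libraries. The adjusted p was 0.0747 without B library 1, 0.0824 without B library 3, 0.100 without B library 4, 0.0721 without T library 3 and 0.0521 without T library 4.

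The Cd9 region 27.1 kb from the start site, at chr6:125467290-125467624, was the second with B and T libraries apart. Its libraries had 62.1, 31.8, 28.3, 41.9 and 43.0 normalized CPM in B patches, against 13.4, 24.0, 6.72, 2.49 and 15.7 in T patches, and the test did not pass (log2 fold change 1.74 ± 0.57, adjusted p = 0.127). At the Cd9 start site, chr6:125494651-125494852, values were 15.7, 0, 20.8, 31.2 and 13.5 normalized CPM in B patches, against 16.4, 0, 10.0, 12.2 and 12.6 in T patches, with 1 library at 0 in either group (log2 fold change 0.66 ± 1.03, adjusted p = 0.923). A small region 186 bp further in was the only Cd9 region with an estimate below 0 (log2 fold change -1.35 ± 1.37, adjusted p = 0.832). The 3 outside regions ranged from 0.14 to 0.55 in log2 fold change, with no adjusted p under 0.859. Once genes of every biotype are allowed, these 3 belong to the predicted gene Gm32673.

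No region of either receptor passed the test, and the estimates at both start sites were below 0. Notch1 (gene ID 18128, chr2:26457902-26503822) had its start site in the region chr2:26503707-26504022, which had 28.1, 17.9, 31.0, 36.3 and 37.7 normalized CPM in B patches, against 54.4, 54.4, 75.7, 65.3 and 36.1 in T patches. Of the B libraries, numbers 4 and 5, at 36.3 and 37.7, lay just above T library 5 at 36.1, and all other T libraries lay above every B library. The edgeR test did not pass (log2 fold change -0.92 ± 0.37, adjusted p = 0.253), while DESeq2 called it lower in B with an adjusted p of 0.0479. With genes of every biotype this region holds an end of Notch1 and an end of the predicted gene Gm35978. The tie went to Gm35978 by alphabetical order alone. The other Notch1 region then belongs to Mir6996. The other Notch1 region, 20.1 kb into the gene at chr2:26483631-26483740, had 8.66, 0, 25.6, 22.4 and 15.7 normalized CPM in B patches, against 10.4, 0, 11.2, 17.7 and 5.31 in T patches (log2 fold change 0.69 ± 1.09, adjusted p = 0.922).

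Notch2 (gene ID 18129, chr3:98013538-98150367), the receptor that marginal zone B cells depend on, had 2 tested regions at its start site, 15 bp apart. The first, chr3:98013260-98013557, had 36.0, 13.5, 22.7, 15 and 26.4 normalized CPM in B patches, against 46.1, 9.20, 33.0, 35.2 and 43.8 in T patches, with overlapping groups (log2 fold change -0.56 ± 0.51, adjusted p = 0.803). The second, chr3:98013572-98013728, had 14.9, 0, 8.95, 6.51 and 10.6 normalized CPM in B patches, against 10.1, 32.8, 14.6, 0.748 and 3.98 in T patches (log2 fold change -0.59 ± 1.09, adjusted p = 0.942). The third Notch2 region lay 8.0 kb outside the gene and had too few counts to be tested, with at most 12.2 normalized CPM in a B patch and 11 in a T patch.

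RBPJ is the DNA-binding protein through which Notch receptors act on their targets. Rbpj (gene ID 19664, chr5:53555779-53657445) had 4 tested regions, none called. The region over the start site of the promoter table, chr5:53590145-53590708, had 40.9, 63.9, 42.7, 73.6 and 35.4 normalized CPM in B patches, against 46.3, 20.4, 43.1, 67.6 and 40.0 in T patches (log2 fold change 0.23 ± 0.38, adjusted p = 0.926), and was picked for full values after they had been seen. The nearest to a gene end, chr5:53572666-53572779, had 15.4, 12.1, 3.54, 17.5 and 2.97 normalized CPM in B patches, against 5.57, 0, 2.37, 0 and 5.53 in T patches. It also had the lowest p of the gene and did not pass (log2 fold change 1.91 ± 1.33, adjusted p = 0.671). The regions 0.863 and 0.589 kb before the start site had log2 fold changes of -0.26 ± 0.32 and 0.72 ± 0.82. The annotated span of the gene begins upstream of all of them. Another region had too few counts to be tested. RefSeq lists 3 Rbpj pseudogenes, and how reads that fit several copies were counted is not stated in the labels, so the Rbpj counts are uncertain.

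CD1d presents lipids to natural killer T cells, and in mice its gene is Cd1d1. Cd1d1 (gene ID 12479, chr3:86995834-87012358) had 1 region inside the gene, chr3:86998817-86999427, with 30.5, 57.4, 30.8, 28.0 and 21.5 normalized CPM in B patches, against 16.4, 100.0, 40.3, 72.3 and 39.6 in T patches (log2 fold change -0.68 ± 0.45, adjusted p = 0.640). T libraries spread more widely there than B libraries. The other 2 regions lay 4.7 and 5.5 kb outside the gene. The farther, chr3:87017826-87017987, had reads in 5 of 5 B patches and 2 of 5 T patches, with 13.7, 14.6, 12.9, 16.2 and 7.77 normalized CPM in B patches, against 4.30, 0, 0, 0 and 2.88 in T patches. The groups were apart, but at these low counts the test did not pass (log2 fold change 3.15 ± 1.39, adjusted p = 0.325), and with every biotype allowed the region belongs to the predicted gene Gm8869. The nearer, chr3:87017082-87017318, had 11.7, 0, 6.45, 26.0 and 7.27 normalized CPM in B patches, against 2.02, 0, 0, 4.49 and 0.221 in T patches (log2 fold change 2.91 ± 1.56, adjusted p = 0.479). The near-identical copy Cd1d2 is listed as a pseudogene, and only protein-coding genes could be given a region. Cd1d1 counts could include reads of the copy, which was not tested.

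Summed over the regions of each gene, Dtx1 and Cd9 were again higher in B patches and the other 4 genes did not pass. Of 11094 gene sums tested, 4.25% were called, 2.34% higher in B and 1.9% higher in T, and in 3.95% the groups did not overlap with B higher. Dtx1 had 366, 289, 350.1, 291 and 242 normalized CPM in B patches, against 132, 90.2, 177, 126 and 146 in T patches. The lowest B library, at 242, exceeded the highest T library, at 177. The means were 308 ± 50.2 normalized CPM in B patches against 134 ± 31.6 in T patches (SD, n = 5 each), 2.29-fold (log2 fold change 1.19 ± 0.20, adjusted p = 0.00116 in edgeR). Cd9 had 154, 144, 147, 179 and 114 normalized CPM in B patches, against 82.4, 72.2, 77.0, 44.7 and 79.7 in T patches. The means were 148 ± 23.2 normalized CPM in B patches against 71.2 ± 15.3 in T patches, 2.07-fold (log2 fold change 1.05 ± 0.24, adjusted p = 0.0118), with the groups apart. The Cd9 call was lost when libraries were scaled by library size alone (adjusted p = 0.0526). The sums and the single regions use the same reads, so they are no separate evidence.

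The other gene sums overlapped between the groups. Notch1 had 36.1, 20.1, 55.2, 58.6 and 50.4 normalized CPM in B patches, against 63.4, 59.5, 81.8, 84.0 and 39.9 in T patches (log2 fold change -0.57 ± 0.35, adjusted p = 0.522). Notch2 had 51.6, 19.7, 37.4, 24.2 and 46.5 normalized CPM in B patches, against 58.2, 46.0, 45.8, 47.4 and 48.2 in T patches (log2 fold change -0.45 ± 0.36, adjusted p = 0.685), and its T libraries other than number 1 lay within 45.8 to 48.2. Rbpj had 119, 156, 125, 173 and 117 normalized CPM in B patches, against 158, 71.4, 106, 141 and 146 in T patches (log2 fold change 0.14 ± 0.24, adjusted p = 0.882). Cd1d1, whose regions differed in direction, had 55.0, 80.9, 48.9, 70.0 and 34.5 normalized CPM in B patches, against 22.3, 109, 38.0, 77.7 and 41.2 in T patches (log2 fold change 0.01 ± 0.40, adjusted p = 0.999). In order of the signed log2 fold change, from highest to lowest, the genes were Dtx1, Cd9, Rbpj, Cd1d1, Notch2 and Notch1. Only Dtx1 and Cd9 passed the test against T, and differences between genes in this order were not tested.

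**Figure D3:**
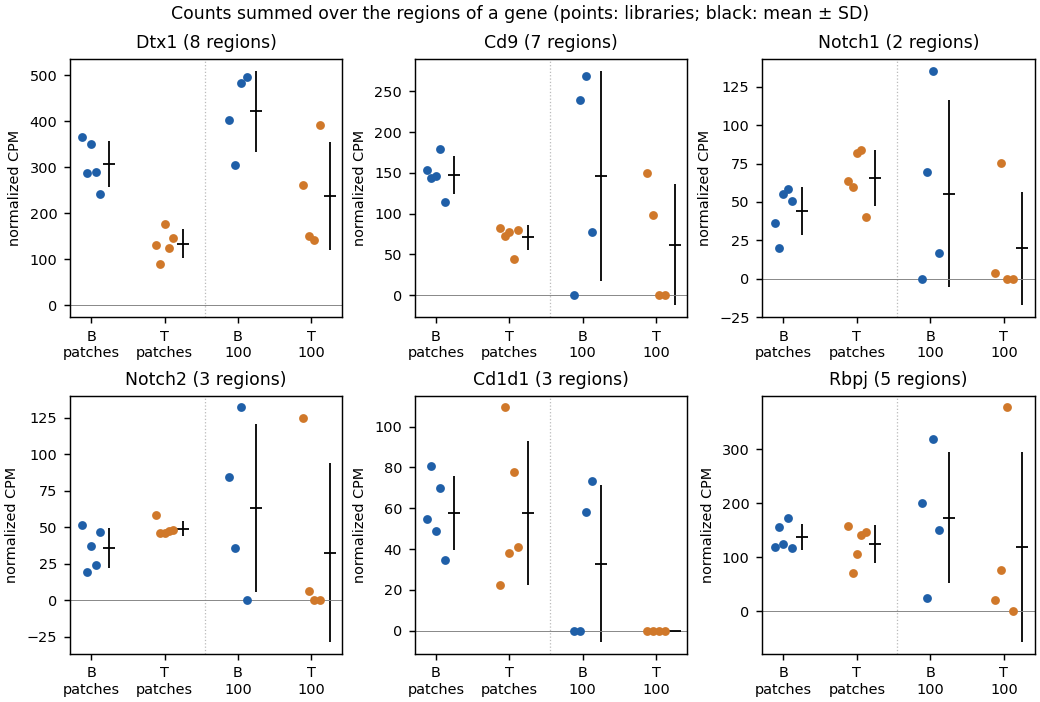
Normalized CPM summed over the regions of each of the 6 genes (y axis, linear) in B and T libraries of patches (n = 5 each) and of 100 nuclei (n = 4 each). Points are libraries and black bars the mean ± SD. In patches the B libraries of Dtx1 (lowest 242) and Cd9 (lowest 114) lie above all T libraries (highest 177 and 82.4), while at 100 nuclei all 6 genes overlap.

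In libraries of 100 nuclei none of the 26 regions passed the test, and most regions had 0 reads in most libraries. At such sparse counts a test that did not pass does not show that B and T were alike, for regions or for gene sums. By edgeR 0 of 26 were called, with a lowest adjusted p of 0.355. Without adjustment 2 of 26 had p under 0.05, against 5.5% of all, and DESeq2 called 0. Of all tested regions 0.0156% were called, and those were the 4 mitochondrial ones. Of the 28 regions, 23 had reads in a library, 14 in both cell types, 8 in B libraries only and 1 in T libraries only. Of all tested regions 21.4% had reads only in B and 14.3% only in T. A library had reads in 9 to 16 of the 28 regions in B and in 2 to 10 in T.

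At the Dtx1 region 17.4 kb into the gene, counts were 0, 19, 164 and 41 reads in B libraries 1 to 4, against 17, 0, 0 and 186 in T libraries 1 to 4. A single T library, number 4, held more reads than any B library. After scaling for depth B library 3 was the highest, at 274 normalized CPM against 249 in T library 4, and the groups overlapped. At the Dtx1 region at 23.6 kb counts were 31, 111, 0 and 55 reads in B libraries 1 to 4, against 0, 9, 0 and 0 in T libraries 1 to 4. So 3 of the B libraries had reads, against 1 of the T libraries. At the called Cd9 region counts were 0, 117, 0 and 22 reads in B libraries 1 to 4, against 0, 0, 0 and 0 in T libraries 1 to 4, with 0 reads in every T library. A count of 0 allows up to 3 reads, counting error only, which is 3.20 to 4.85 normalized CPM in these T libraries with the scaling of gene sums. With the scaling of single regions, 3 reads were 3.65 normalized CPM in T library 1. The Dtx1 region 25.7 kb into the gene had more reads in T libraries, with 1, 2, 0 and 29 reads in B libraries 1 to 4, against 136, 58, 134 and 57 in T libraries 1 to 4. In normalized CPM the groups overlapped, since B library 4 had 75.0 and T library 2 had 68.5, and the test did not pass (edgeR adjusted p = 0.762).

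Gene sums at 100 nuclei were not called for any of the 6 genes, against 0.00901% of all gene sums. Dtx1, the gene with most reads, had 403, 305, 483 and 496 normalized CPM in B libraries, against 262, 152, 143 and 393 in T libraries (log2 fold change 0.83 ± 0.86, edgeR). Its groups overlapped through T library 4. Cd9 had 0, 239, 269 and 78.0 normalized CPM in B libraries, against 149.5, 98.1, 0 and 0 in T libraries, and Notch1 had 0, 69.6, 135 and 16.5 normalized CPM in B libraries, against 3.42, 75.2, 0 and 0 in T libraries. Notch2 had 84.7, 35.7, 132 and 0 normalized CPM in B libraries, against 124, 6.54, 0 and 0 in T libraries, and Rbpj had 201, 24.4, 319 and 151 normalized CPM in B libraries, against 21.7, 76.3, 378 and 0 in T libraries. Cd1d1 had 0, 0, 58.3 and 73.3 normalized CPM in B libraries, against 0, 0, 0 and 0 in T libraries, so no fold change is given.

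**Figure D4:**
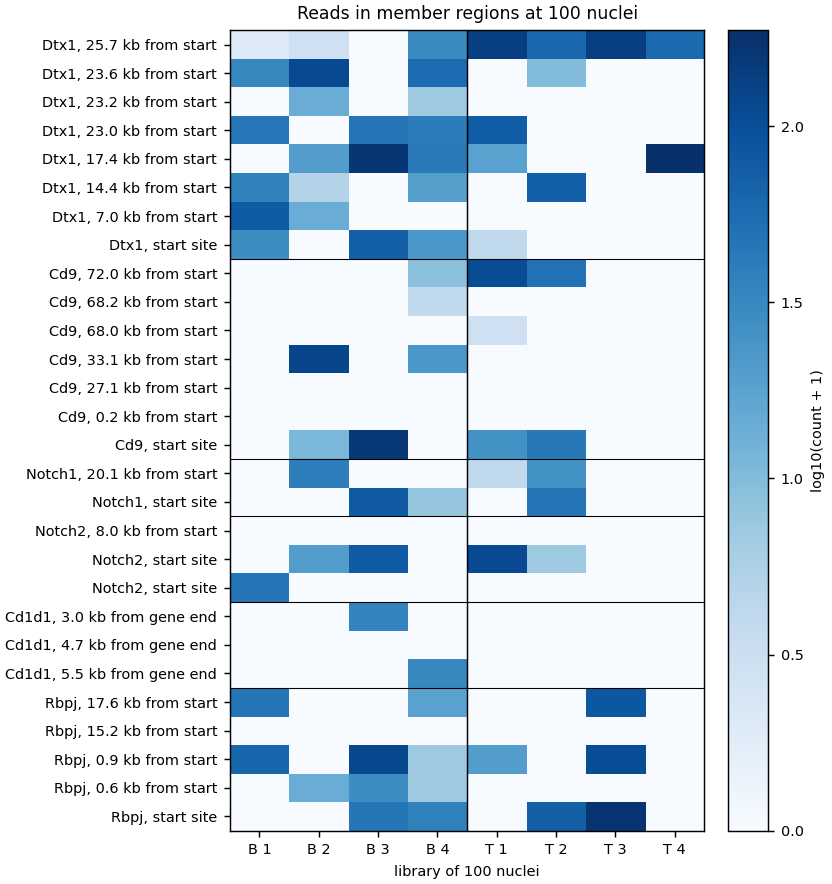
Reads in each of the 28 regions (rows) in the 8 libraries of 100 nuclei (columns, B left of T), coloured by log10(count + 1). White cells hold 0 reads. Most cells are white, T libraries 3 and 4 have reads in 4 and 2 regions, and the row of Dtx1 at 25.7 kb is filled in every T library.

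Whether the difference of B and T itself differed between capture sizes was tested in a fit of all 18 libraries. By edgeR 0 of 26 regions were called (0.0% of all tested), with a lowest adjusted p of 0.0725 among the 26. Without adjustment 7 of 26 had p under 0.05, against 27.1% of all, and in 6 of the 7 a cell type had 0 reads in all libraries of 100 nuclei. DESeq2 called 5 of the 26 and 3199 of all regions. Used for B against T in patches, a joint edgeR fit of the 18 libraries called 0 regions, against 583 in the separate fit. At 100 nuclei it called 6954, against 4 in the separate fit. The 0 calls by edgeR therefore do not show that the difference was the same at both capture sizes.

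Other genes of the Notch pathway were read from a list of ligands, receptors, processing enzymes, cofactors and targets. Of 48 genes 43 had regions, and of 119 tested regions 1 was called higher in B and 0 higher in T, with a median log2 fold change of -0.09. Over all tested regions 1.22% were called higher in B and 1.05% higher in T. The called region belonged to Hes1, a repressor that is the best known Notch target, and lay 25.8 kb outside it at chr16:30039116-30039602. It averaged 96.6 ± 32.0 normalized CPM in B patches, against 17.3 ± 12.1 in T patches (SD of 5 libraries; log2 fold change 2.48 ± 0.43, adjusted p = 0.00479). With genes of every biotype allowed, 0 regions of the list were called. By gene sums 2 of 43 were called, both higher in B, against 2.34% of all gene sums called higher in B. Hes1 averaged 207 ± 64.0 normalized CPM in B patches, against 63.3 ± 16.4 in T patches (SD of 5 libraries; log2 fold change 1.71 ± 0.26, adjusted p = 0.000559). Dll1, a Notch ligand, averaged 51.6 ± 19.3 normalized CPM in B patches, against 7.07 ± 5.44 in T patches (SD of 5 libraries; log2 fold change 2.85 ± 0.60, adjusted p = 0.00703). With regions within 10 kb of a gene end only, neither sum passed (adjusted p = 0.264 for Hes1 and 0.117 for Dll1).

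Of 13 other genes of marginal zone B cells 11 had regions, and Cd1d2, listed as a pseudogene, could be given none. Of 45 tested regions 2 were called, both higher in B, against 1.22% of all tested regions called higher in B. The median log2 fold change was 0.74. DESeq2 called 9 regions of the list, 7 higher in B and 2 higher in T. Without both libraries numbered 2, 6 were called, all higher in B. By library size alone, with the replicate number as a block, or with genes of every biotype, 1 was called, and in the joint fit 0. The region over the start site of Cr2, the complement receptor, averaged 86.6 ± 22.6 normalized CPM in B patches, against 12.6 ± 9.10 in T patches (SD of 5 libraries; log2 fold change 2.78 ± 0.45, adjusted p = 0.00382). A region 5.86 kb outside Fcrl5, an Fc receptor-like protein of marginal zone B cells, averaged 41.8 ± 12.6 normalized CPM in B patches, against 5.66 ± 4.80 in T patches (SD of 5 libraries; log2 fold change 2.88 ± 0.75, adjusted p = 0.0435). The Fcrl5 adjusted p was 0.0522 to 0.133 when B library 1, 2, 3, 4 or 5 or T library 2, 3 or 5 was left out. The edgeR adjusted p of this region was 0.0577 by library size alone and 0.101 with the replicate number as a block. By gene sums 3 of 11 were called higher in B, namely Cr2, Fcrl5 and Mzb1, against 2.34% of all gene sums. Mzb1, a protein that helps antibody folding, averaged 73.0 ± 21.9 normalized CPM in B patches, against 13.8 ± 10.4 in T patches (SD of 5 libraries; log2 fold change 2.39 ± 0.61, adjusted p = 0.0289), and its adjusted p was 0.0621 to 0.105 when B library 1, 3 or 5 or T library 1 or 3 was left out.

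Follicular B cells, the other large B population of the spleen, were read from 5 genes with 23 tested regions. Of these 2 were called higher in B, against 1.22% of all tested regions, and the median log2 fold change was -0.16. By library size alone 1 was called higher in B and 1 higher in T. DESeq2 called 4 higher in B and 1 higher in T. Without both libraries numbered 2, 3 were called higher in B and 1 higher in T. With the replicate number as a block 0 were called, and in the joint fit 0. The start site of Fcer2a, the low-affinity IgE receptor CD23, averaged 43.9 ± 13.5 normalized CPM in B patches, against 4.55 ± 4.32 in T patches (SD of 5 libraries; log2 fold change 3.30 ± 0.75, adjusted p = 0.0230). Its adjusted p was 0.0544 to 0.0898 when B library 1, 3 or 4 or T library 3 or 4 was left out. Cxcr5, the chemokine receptor that brings B cells into follicles, averaged 61.9 ± 33.4 normalized CPM in B patches, against 17.2 ± 6.61 in T patches (SD of 5 libraries; log2 fold change 1.86 ± 0.47, adjusted p = 0.0394) at a region over an end of the gene. Its edgeR adjusted p was 0.0569 to 0.185 when B library 1, 3, 4 or 5 or T library 1, 3, 4 or 5 was left out. By library size alone it was 0.0686. Marginal zone and follicular B cells were not captured apart.

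**Figure D5:**
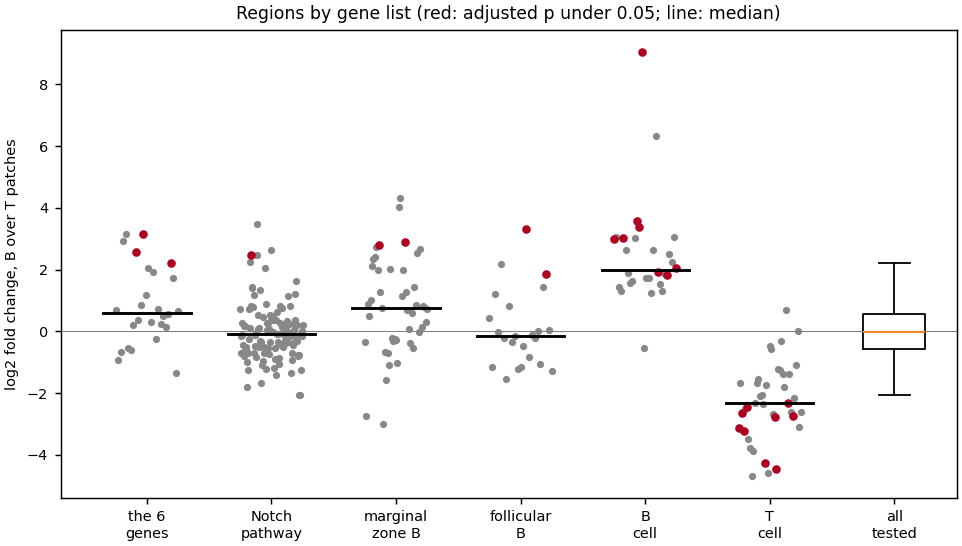
Log2 fold change of B over T patches (y axis) for the tested regions of the 6 genes, of 3 lists of related genes and of the B and T cell markers, with all 25712 tested regions as a box (quartiles, whiskers from the 5th to the 95th percentile). Points are regions, red marks an adjusted p under 0.05 and black lines are medians. The medians are 0.60 for the 6 genes, -0.09 for the Notch pathway, 0.74 for marginal zone B, -0.16 for follicular B, 1.99 for B cell and -2.32 for T cell markers.

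Genes whose sums moved most like each of the 6 over the 10 patch libraries were found by Pearson r of log2 CPM among genes of at least median abundance. All points share depth and the contrast of B with T, so r is a description. For Dtx1 they were Fcrla at 0.967, Naaa at 0.962 and Cobll1 at 0.955. For Cd9 they were H2-Eb2 at 0.957, Nampt at 0.956 and Gad1 at 0.953. The highest for the other genes were Creb3 for Notch1 at 0.942, Mgat2 for Notch2 at 0.952, Arl5b for Cd1d1 at 0.937 and Arpc1b for Rbpj at 0.953. Fcrla, an Fc receptor-like protein of B cells, had a log2 fold change of 3.06 ± 0.38 (edgeR adjusted p = 9.22e-05). H2-Eb2, a class II antigen-presentation gene, had a log2 fold change of 1.95 ± 0.27 (edgeR adjusted p = 0.000239). Naaa, Cobll1 and Gad1 were also called higher in B. Nampt did not pass the test (log2 fold change 0.57 ± 0.19, edgeR adjusted p = 0.106), nor did Creb3, Mgat2, Arl5b or Arpc1b.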

How the data were processed

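The authors deposited raw whole-number counts of 27396 regions in 18 libraries, which were matched to the labels by column name. The submitters' processing notes name MACS2 2.2.7.1, Bowtie2 2.4.5, Trimmomatic 0.36, Picard, SAMtools 1.14, deepTools 3.5.2 and build mm10. How regions were called, duplicates treated and reads shifted, and whether starts count from 0 or 1, is not given in those sources. Coordinates are printed as deposited. No molecular identifiers are named, so reads may be copies of 1 molecule.

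Regions were assigned and start sites placed with RefSeq tables of GRCm38.p6. Counts were tested with edgeR 4.0.16 (R 4.3.3) on the groups compared: TMM factors, library sizes with mitochondrial counts, a filterByExpr minimum count of 10 over the 4 groups (25712 regions kept), the quasi-likelihood F-test, and p-values adjusted by Benjamini-Hochberg over all regions or over 11094 gene sums. The standard error is the log2 fold change over the square root of F. The test was tried on simulated data. Normalized CPM are counts divided by library size after TMM scaling. Ratios used exact permutation tests (SciPy 1.17.1).

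Named are the region of each gene nearest a gene end, that with the lowest p, called regions, and genes with called regions or sums in the lists. Likeness used a prior count of 2. The genes, lists and rules were chosen with earlier results of these data known. Alternatives were DESeq2 1.42.0, other scalings, filters and distances, a joint fit, a block and left-out libraries.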

Additional observations from a re-analysis of the deposited data

Results flagged for a closer look

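Within each group of 4 or 5 libraries, a library was singled out where its gap to the next, over the whole range, passed Dixon's 95% critical value. Of 50 groups of values 7 were singled out. The critical value gives about 1 in 20 by chance only for independent, normally spread values. Some of these groups hold counts of 0 and gene sums reuse the reads of regions, so an excess over chance was not shown. At 100 nuclei the highest T library stood apart at the Dtx1 regions 17.4 kb (186 reads) and 23.6 kb (9 reads, the others at 0) into the gene. The highest T library of 100 nuclei also stood apart in the gene sums of Notch1 (75.2 normalized CPM) and Notch2 (124 normalized CPM). In patches the highest B library stood apart at the Cd1d1 region inside the gene (57.4 normalized CPM). The lowest T patch stood apart in the Cd9 sum (44.7 normalized CPM) and the highest T patch in the Notch2 sum (58.2 normalized CPM).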

How the results depend on the processing

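Among the alternative fits, the call at the Dtx1 region 17.4 kb into the gene was lost only in the joint fit of all 18 libraries. That region lies 13.8 kb from the nearest gene end, so with a limit of 10 kb it was not given to Dtx1. The sums of Dtx1 and Cd9 stayed higher in B patches under every alternative tried. In patches 583 regions were called. The count was 2102 by DESeq2, 0 in the joint fit, 1156 without both libraries numbered 2 and 259 to 673 with each library left out. Of the 28 regions 3 were called, and 5 by DESeq2 (4 higher in B, 1 in T), 0 in the joint fit, 5 without both libraries numbered 2 and 1 to 3 with each library left out. With only regions within 10 kb of a gene end, 2 were called, and by library size alone 2. Scaling by library size alone gave 232 regions higher in B and 359 higher in T, against 314 and 269, and 1 of the 6 gene sums in place of 2. Gene sums called in patches numbered 471, and 788 by DESeq2, 243 within 10 kb of a gene end, 752 without both libraries numbered 2 and 322 to 537 with each left out. At 100 nuclei 4 regions were called, and 0 without mitochondrial regions, 0 by DESeq2, 6954 in the joint fit (9 of the 28 regions) and 2 to 4 with each left out. The 1 gene sum called there became 0 by library size alone or within 10 kb, 88 by DESeq2 and 0 to 1 with each left out. The difference between capture sizes, with 0 calls, gave 2 with RLE factors, 3199 by DESeq2 (5 of the 28 regions) and 0 to 419 with each left out, the most without T library 1 of 100 nuclei.

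Libraries with the same number shared no deviations (r from -0.0138 to 0.0332), so numbers were not taken as pairs. With the replicate number as a block, 215 regions in patches, 1 of the 28 regions, 0 regions at 100 nuclei and 0 gene sums at 100 nuclei were called. The following signs turned. The Rbpj start-site region had -0.034 without both libraries numbered 2. The Cd1d1 sum had -0.000559 with RLE factors, -0.17 by library size alone, -0.0013 by DESeq2 and -0.20 to 0.37 with each left out. The Rbpj sum had -0.0505 by library size alone and -0.0497 without both libraries numbered 2, -0.0012 to 0.24 with each left out, and -0.15 at 100 nuclei by library size alone, against 0.55 with TMM factors. The cause of these changes was not tested. At 100 nuclei a count of 0 allows up to 3 reads, so a region without reads was not shown to be closed.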
